A study of Mus musculus with 8 samples.

Results

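The experiment described here is the response of mouse macrophages to transforming growth factor beta 1 (TGFb1), read as RNA levels in 1 TGFb1 library set against 1 untreated library. Its members were all genes that the deposited TGFb1 table lists with status OK in both libraries, which were 36434 of 36806 genes. Status OK means that the authors' program returned an estimate, and 372 genes without it were left out. The cells were bone marrow-derived macrophages, primary cells grown from the marrow of C57BL/6 mice in medium conditioned by L929 fibroblasts, a source of the growth factor CSF1, and taken on day 7 of differentiation. The TGFb1 culture had received 1 ng/ml TGFb1 for 4 h and the other culture no agent. In 6 further cultures of the same series, which serve below as another set for comparison, the agents were the cytokines IFNg at 100 ng/ml, IL4, TNFa and IL1b at 10 ng/ml, the bacterial lipopeptide MALP2 at 1 ng/ml or CpG DNA at 100 nM, again for 4 h. Each group is 1 library of poly(A) RNA, and whether the cultures shared mice or marrow is not stated in the labels.

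TGFb1 is secreted in a latent complex and acts after release from it, in many tissues through integrins. The active dimer binds the type II receptor TGFBR2, which phosphorylates the type I receptor TGFBR1, and this in turn phosphorylates SMAD2 and SMAD3, which enter the nucleus with SMAD4 and act at target genes. The pathway induces its own inhibitors, among them SMAD7, SKIL and PMEPA1, and in the macrophage lineage it is known for its need in microglia and in Langerhans cells of the skin and for restraining inflammatory genes.

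With 1 library a side no replicate error, test or p-value was possible. Levels are FPKM, fragment numbers scaled to the length of a transcript and to the size of its library, and the ranges in brackets beside them are the authors' lower and upper confidence bounds, at a level not stated in the files. A gene was compared when it reached 1 FPKM in either library, which 12847 genes did, and a 2-fold difference after adding 1 FPKM to both levels, a log2 change of 1 or more or of -1 or less, counted as higher or lower, written below also as rose or fell. All log2 changes below are on this scale, which understates the change of genes with low FPKM.

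By that rule 918 genes were higher in the TGFb1 library, 7.15% of those compared, and 1175 genes were lower, 9.15%. At least 4-fold, 220 genes were higher and 193 lower, and at least 8-fold 84 were higher and 59 lower. Of the 918 higher genes 65 were listed at 0 in the untreated library, and of the 1175 lower ones 72 at 0 in the TGFb1 library. Some such genes are among the largest changes on weak estimates, such as Snord37 at 809 FPKM with TGFb1 and a lower bound of 0. The bounds of the libraries stood apart for 569 of the higher genes (4.43% of all compared) and 733 of the lower ones (5.71%). Of the higher genes 654 (5.09%) were called different in the authors' deposited table, and of the lower ones 845 (6.58%). Those calls rest on the same pair of libraries without replicates, so they do not measure variation between cultures. The median gene lay at -0.08 on the log2 scale, with quartiles of -0.49 and 0.36. Genes below 1 FPKM in the untreated library make up 497 of those compared, and 37.4% of them were higher, which the entry rule favours, since such a gene enters only through the TGFb1 library. Among genes at 100 FPKM or more in the untreated library 2.81% were higher and 16.1% lower. This class was chosen by the untreated level, which is also the basis of the change, and that choice favours lower genes. With log2 changes centred on the median gene, 1058 genes were higher and 1020 lower, so the split between the directions shifts with the scaling.

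**Figure D1:**
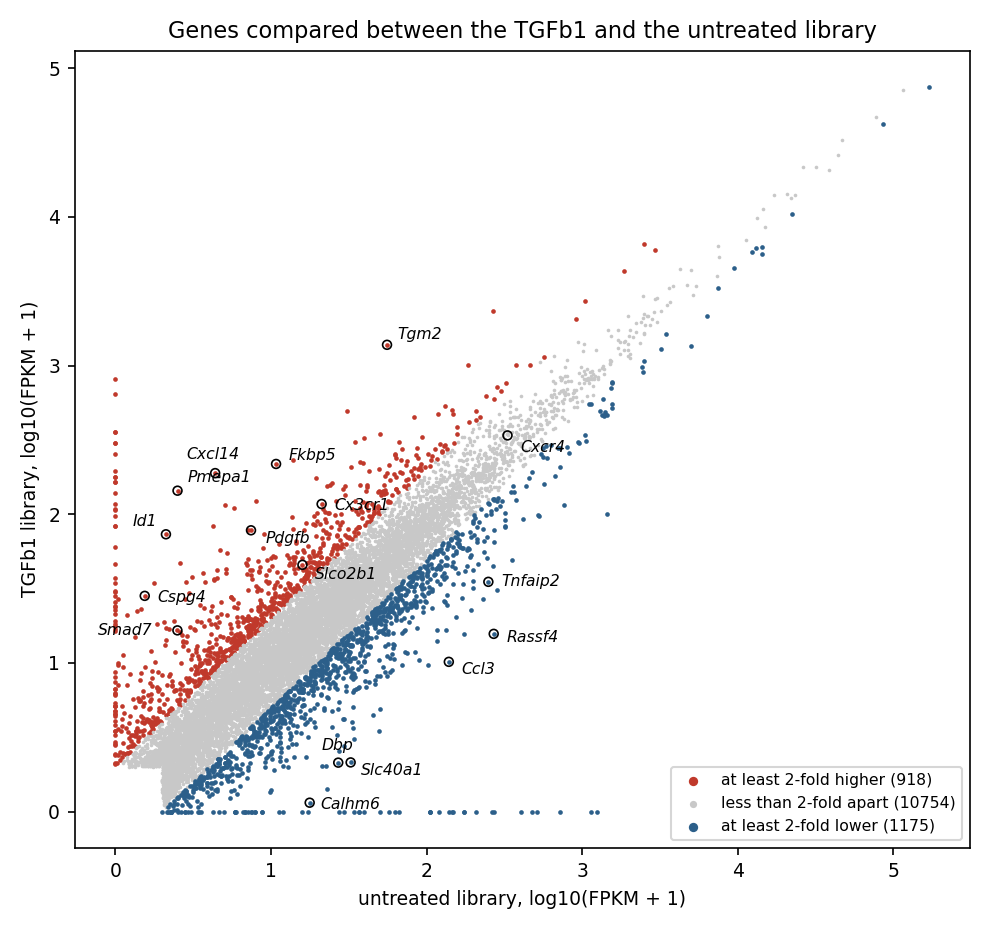
Each point is 1 of 12847 genes, with its level in the TGFb1 library on the vertical axis and in the untreated library on the horizontal axis, both as log10(FPKM + 1). Red points (918) are at least 2-fold higher in the TGFb1 library, blue points (1175) at least 2-fold lower, grey points lie between, and circles mark genes named in the text, such as Pmepa1 at 143 FPKM in the TGFb1 library and 1.51 FPKM in the untreated one.

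Many genes set the untreated library apart from all 7 stimulated ones, though on the high side the IFNg library had about as many. Over 13522 genes with status OK in every table and 1 FPKM or more in any library, each library was set against all others. In the untreated one 377 genes were at least 2-fold above every other library and 196 at least 2-fold below. The TGFb1 library had 62 and 16 such genes, the IFNg library 382 and 29, and the IL4 library 179 and 62. A gene high in only 1 library enters this set through that library. For a gene that differs between the untreated library and all stimulated ones, an effect of the agents and a property of the untreated culture cannot be told apart in this design. Gene groups are for that reason also given against the median of the other 6 stimulated libraries, where 442 of 12424 genes were at least 2-fold higher in the TGFb1 library (3.56%) and 500 lower (4.02%). The count of a group is to be read beside these shares over all genes, and beside 7.15% higher and 9.15% lower where the untreated library is the basis. Members enter a group's count with 1 FPKM in either library, or in the TGFb1 library or the median of the other 6, so the number measured differs between the bases. A member below 1 FPKM in the untreated library, such as Inhba, Spsb1, Fgf2, Arg1 or Slc7a2, entered only through the TGFb1 library. Members below 1 FPKM in the TGFb1 library, such as Gdf15 or Ciita, entered only through the untreated one. The entry rule thus partly fixes the counts and medians of such lists. Of the 918 genes higher than in the untreated library, 216 were also 2-fold above that median, 659 lay within 2-fold of it and 39 were 2-fold below it. Of the 1175 lower genes, 167 were also 2-fold below it, 972 lay within 2-fold of it and 29 were 2-fold above it. The worth of 1 read, read from the smallest values, was 1.08 times as large in the TGFb1 library as in the untreated one, so the relative depth of this pair was similar, while the number of reads is unknown.

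Macrophage markers matched the label. The growth factor receptor gene Csf1r was at 1085 FPKM in the TGFb1 library and 1509 FPKM in the untreated one, the F4/80 gene Adgre1 at 599 FPKM with TGFb1 and 856 FPKM untreated, and the lysosomal marker Cd68 at 1737 FPKM in the TGFb1 library and 2039.6 FPKM in the untreated one. Of 11 measured markers Cebpb, a transcription factor gene, was the 1 that passed 2-fold, at 50.3 FPKM in the TGFb1 library and 19.9 FPKM in the untreated one, with overlapping bounds; Lyz2 had a status other than OK. Neutrophil markers summed to 222 FPKM in the TGFb1 library and 266 FPKM in the untreated one, mostly S100a8 and S100a9, while Ly6g was at 0.117 FPKM with TGFb1 and 1.94 FPKM untreated with bounds apart. Ppbp, a platelet chemokine gene, was at 3.16 FPKM in the TGFb1 library and 0.655 FPKM in the untreated one, with 0.664 to 5.74 FPKM in the other 6, and its part in the results was not tested. Pf4, the other measured marker of megakaryocytes and platelets, was more abundant and did not pass 2-fold. It was at 43.8 FPKM with TGFb1 and 47.3 FPKM untreated, with 28.2 to 159 FPKM in the other 6. Stromal markers summed to 58.6 FPKM with TGFb1 and 51.9 FPKM untreated. The 8 markers of T and NK cells, 5 of erythroid cells and 5 of dendritic cells were all below 1 FPKM in both libraries. Among B cell markers, Cd79a, Ms4a1 and Pax5 were below 1 FPKM in both, while Ighm, the heavy chain gene of IgM, was at 25.2 FPKM in the TGFb1 library and 128 FPKM in the untreated one, and Cd79b at 2.32 FPKM with TGFb1 and 8.05 FPKM untreated. Ighm ranged from 15.5 to 30.6 FPKM in the other 6 libraries, so the untreated library was the high one, and its part in the results was not tested. In bulk RNA a change in the share of a cell type and a change in RNA per cell cannot be told apart.

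Of 26 genes that produce or activate TGFb, 15 were measured, of which 5 were higher and 2 lower, with a median log2 change of 0.44 against -0.08 over all genes. Tgfb1 itself was at 154 FPKM in the TGFb1 library (bounds 92.3 to 216) and 166 FPKM in the untreated one (95.2 to 236), a log2 change of -0.10, while Tgfb2 and Tgfb3 stayed below 1 FPKM in both. Integrin alpha v, which pairs with beta subunits to release latent TGFb, rose: Itgav was at 103 FPKM in the TGFb1 library (54.6 to 151) and 21.3 FPKM in the untreated one (12.5 to 30.1), a log2 change of 2.22 with bounds apart. The partner genes Itgb5 (418 FPKM in the TGFb1 library, 186 FPKM in the untreated one) and Itgb3 (13.3 FPKM with TGFb1 and 4.92 FPKM untreated) rose by 1.17 and 1.27, and the protease gene Furin, which cleaves the precursor, by 1.31, all of them with overlapping bounds. Itgav at 48.1 to 106 FPKM was about as high in the other 6 libraries, whereas Itgb5 in the TGFb1 library exceeded all of them (96.7 to 229 FPKM). Inhba, the activin A subunit, was at 4.16 FPKM in the TGFb1 library and 0.51 FPKM in the untreated one, a log2 change of 1.77. Inhba entered the count against the untreated library only through the TGFb1 library. The lower members were Nrros, a protein that anchors latent TGFb on macrophages and microglia, at 69.4 FPKM in the TGFb1 library (54.3 to 84.5) and 245 FPKM in the untreated one (195 to 295), and Gdf15, a distant family member, at 0.908 FPKM with TGFb1 and 9.5 FPKM untreated. Nrros fell by 1.80 on the log2 scale, and in the other 4 libraries where it has status OK it lay between 118 and 323 FPKM; after TNFa and MALP2 its status was not OK. Against the median of the other 6 libraries the list had 2 higher and 1 lower of 13 measured, with a median of 0.18.

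The receptor genes included 1 higher and 1 lower of 9 measured, with a median log2 change of -0.15. Tgfbr1, the type I receptor, was at 51.9 FPKM in the TGFb1 library (28.8 to 74.9) and 11.8 FPKM in the untreated one (6.76 to 16.8), a log2 change of 2.05 with bounds apart. Tgfbr2, the type II receptor, was at 21.5 FPKM in the TGFb1 library (14.5 to 28.5) and 58.9 FPKM in the untreated one (41.9 to 75.8), a change of -1.41, also with bounds apart. Against the other 6 libraries they differ: Tgfbr1 there had a lowest level of 3.48, a median of 14.7 and a highest of 30.1 FPKM, all below the TGFb1 library, while Tgfbr2 lay between 13.1 and 29.8 FPKM, a range that holds the TGFb1 value. The fall of Tgfbr2 is thus a difference from the untreated library alone, at 0.31 against the median of the other 6. On that basis 1 of 8 receptor genes, Tgfbr1, was higher and 0 lower. The remaining receptor genes lay within 2-fold, among them Eng at 14.7 FPKM in the TGFb1 library and 26.5 FPKM in the untreated one and Acvr1 at 24 FPKM with TGFb1 and 12 FPKM untreated.

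Among SMADs and the proteins that control them, 19 of 21 listed were measured, 7 were higher and 1 lower, with a median of 0.60. The signal-carrying SMADs did not pass 2-fold: Smad2 was at 23.6 FPKM in the TGFb1 library and 24.4 FPKM in the untreated one, Smad3 at 8.38 FPKM with TGFb1 and 15.2 FPKM untreated, and Smad4 at 21.9 FPKM with TGFb1 and 34.3 FPKM untreated, all with overlapping bounds. The inhibitors did. Smad7, which blocks TGFBR1, was at 15.6 FPKM in the TGFb1 library (7.83 to 23.3) and 1.5 FPKM in the untreated one (0.749 to 2.26), a log2 change of 2.72. The co-repressor gene Skil was at 58.2 FPKM in the TGFb1 library (41.1 to 75.3) and 7.9 FPKM in the untreated one (5.72 to 10.1), a change of 2.73, and its relative Ski at 141 FPKM with TGFb1 and 50.2 FPKM untreated, a change of 1.47. Smad6, better known as the inhibitor of the BMP branch, was at 12.2 FPKM in the TGFb1 library (7.34 to 17.2) and 1.1 FPKM in the untreated one (0.423 to 1.77), a change of 2.66. The ubiquitin ligase gene Smurf2 rose by 1.10, and Ldlrad4, an inhibitor of SMAD phosphorylation, by 1.04 with overlapping bounds and no call by the authors. The ligase gene Nedd4l fell by 1.54, at 5.79 FPKM in the TGFb1 library and 18.8 FPKM in the untreated one.

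On the basis of the other 6 libraries 3 of 19 were higher and 0 lower, with a median of 0.23. These inhibitors divide when the other stimulated libraries are set beside them. Smad7 in the TGFb1 library, at 15.6 FPKM, lay above all 6 (2.99 to 7.42 FPKM, median 4.31), as did Ski (34.1 to 112 FPKM, median 44.9), Smurf2 (14.7 to 21 FPKM), Skil (34 to 47.5 FPKM) and Pmepa1 (31.6 to 77.8 FPKM). Of these Smad7, Ski and Pmepa1 were at least 2-fold above the median, by 1.64, 1.63 and 1.62 on the log2 scale. Smad6 did not follow: its levels elsewhere had a lowest value of 5.52, a median of 16.5 and a highest of 27.8 FPKM, so that the log2 change of the TGFb1 library against the median was -0.40 and the untreated library was the low one. Nedd4l likewise lay within the range of the other 6 (4.36 to 8.45 FPKM).

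**Figure D2:**
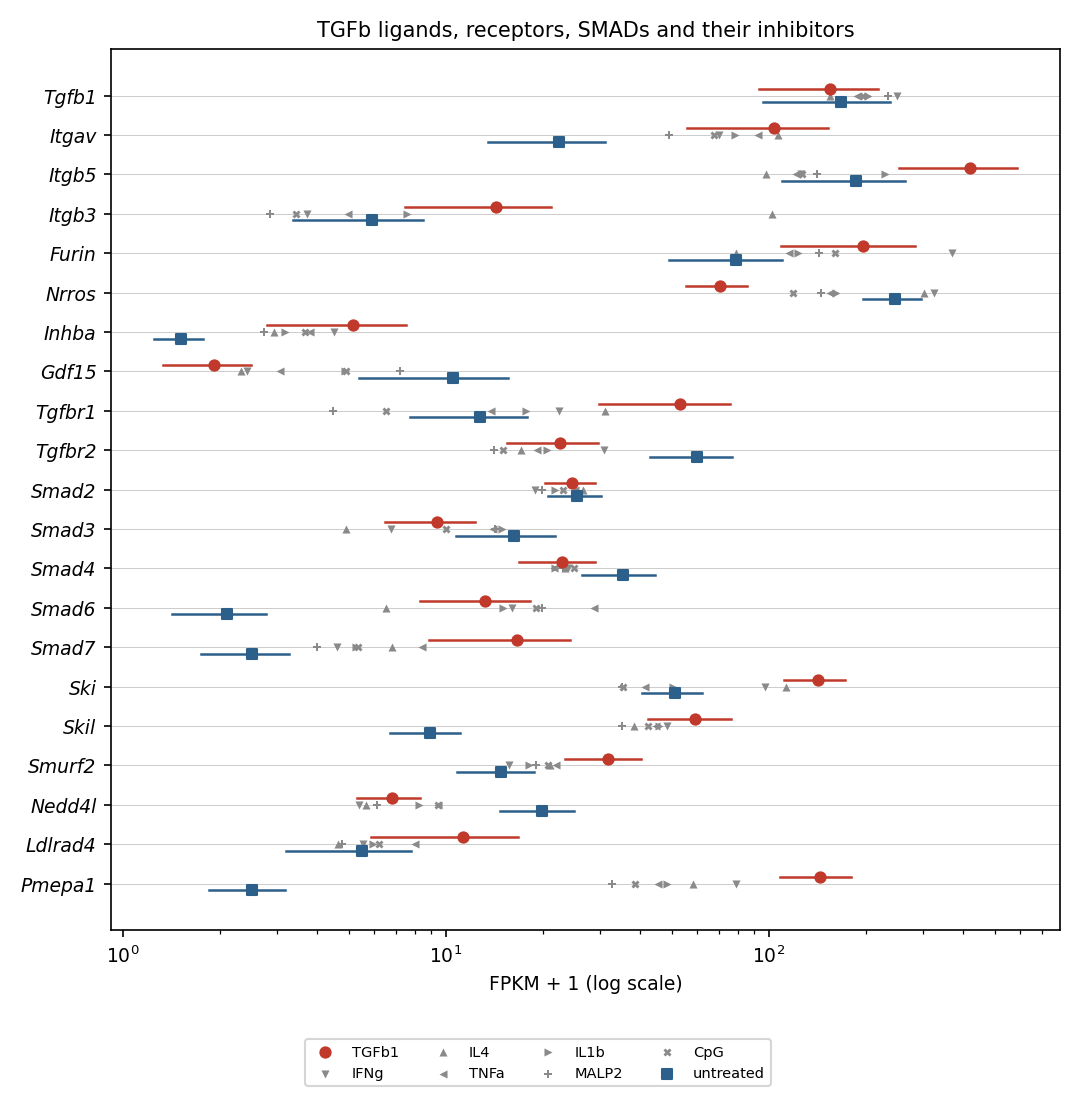
FPKM + 1 on a log axis for 21 genes of TGFb production, reception and its control, with the TGFb1 library as red circles, the other 6 stimulated libraries as grey symbols and the untreated library as blue squares; lines are the authors' bounds for the TGFb1 and untreated libraries. Pmepa1, Smad7, Ski and Tgfbr1 in the TGFb1 library lie to the right of every other library, whereas Smad6 and Tgfbr2 lie among the grey symbols; the TNFa and MALP2 symbols of Nrros come from estimates whose status is not OK.

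Pmepa1, which encodes a membrane protein that sequesters SMAD2 and SMAD3, had the largest change of any gene with a value above 0 in both libraries. It was at 143 FPKM in the TGFb1 library (108 to 179) and 1.51 FPKM in the untreated one (0.849 to 2.17), a log2 change of 5.84, at the locus chr2:173049959-173102034 in mm9. All 6 other stimulated libraries also held more Pmepa1 than the untreated one, at 31.6 FPKM (MALP2) to 77.8 FPKM (IFNg).

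Promoter sequence is shown for genes of this response where RefSeq's table of GRCm38.p6 has an entry, so that the short letters bound by SMAD proteins can be seen in place. The windows are the 250 bases before the gene's start, 5′ to 3′ on the gene's strand, with CAGAC or its complement GTCTG in capitals. Smad6 (chr9:64022060-64022309, minus strand) holds no match, and Id3 (chr4:136143572-136143821, plus strand), a SMAD-controlled gene described below, holds 2, which begin 167 and 68 bases before the start.
Smad6: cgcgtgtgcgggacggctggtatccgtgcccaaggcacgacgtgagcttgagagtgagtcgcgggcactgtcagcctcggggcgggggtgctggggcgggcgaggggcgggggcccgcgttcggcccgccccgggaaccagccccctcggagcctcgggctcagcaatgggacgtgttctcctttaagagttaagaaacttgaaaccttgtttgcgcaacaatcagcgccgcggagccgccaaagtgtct
Id3: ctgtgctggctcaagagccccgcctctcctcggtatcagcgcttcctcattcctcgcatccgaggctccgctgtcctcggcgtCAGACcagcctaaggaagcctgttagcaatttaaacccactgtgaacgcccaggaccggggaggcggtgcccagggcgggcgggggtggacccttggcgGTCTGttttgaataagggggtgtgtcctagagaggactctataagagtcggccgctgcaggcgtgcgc
The 5-letter motif is common: it occurs on either strand in 42.2% of 32851 promoter windows of this length, in 40.2% of the 10777 windows of compared genes, in 38.0% of the 705 windows of genes at least 2-fold higher and in 13 of 23 windows (56.5%) of the named higher genes, and windows of 1 gene overlap. The 8-letter palindrome GTCTAGAC, which contains no CAGAC or GTCTG, occurs in 0.167% of all windows, in 0.223% of those of compared genes, in 0.284% of those of higher genes and in none of the 23. The AP-1 motif TGANTCA was found in 6.75% of all windows, 4.48% of those of the compared genes, 7.66% of those of higher genes and 5 of the 23 (21.7%). A match of these letters is a description of the window and not evidence of binding.

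Genes that TGFb is known to induce in fibroblasts and epithelial cells were mostly higher here too. Of 37 listed 30 were measured, 17 were higher and 5 lower, with a median log2 change of 1.12. The list shares Pmepa1, Smad6, Smad7, Ski, Skil, Ldlrad4 and Furin with the lists above. Spsb1, an adaptor of a ubiquitin ligase reported to act on TGFBR2, was at 33.6 FPKM in the TGFb1 library (20.8 to 46.4) and 0.783 FPKM in the untreated one (0.397 to 1.17), a change of 4.28. Spsb1 entered the count against the untreated library only through the TGFb1 library. Tgfbi, a secreted adhesion protein named for its induction, was at 2336 FPKM in the TGFb1 library and 266 FPKM in the untreated one. The connective tissue growth factor gene Ccn2 rose by 1.74 and the metalloproteinase inhibitor gene Timp3 by 2.03. The 5 lower members were Atf3, Gadd45b, Tsc22d1, Bmf and Bcl2l11. Bmf and Bcl2l11 encode BH3-only proteins that promote cell death. Bmf was at 9.59 FPKM in the TGFb1 library (6 to 13.2) and 21.6 FPKM in the untreated one (12.9 to 30.3), and Bcl2l11 at 22.1 FPKM with TGFb1 and 45.8 FPKM untreated. Compared with the median of the other 6 libraries, 9 of 30 measured there were higher and 4 lower, with a median of 0.47. Spsb1 was 2-fold above every one of them (5.9 to 16.2 FPKM), while Tgfbi (1223 to 2431 FPKM) lay within their range.

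Platelet-derived growth factors rose with them. Pdgfb was at 77 FPKM in the TGFb1 library (37.1 to 117) and 6.44 FPKM in the untreated one (3.03 to 9.86), a log2 change of 3.39. Pdgfa was at 173 FPKM in the TGFb1 library (139 to 207) and 18.6 FPKM in the untreated one (14.3 to 22.9), a change of 3.15. Both encode chains of PDGF, a mitogen of fibroblasts and smooth muscle. They part in the other libraries: Pdgfb was at 69.1 to 113 FPKM in 5 of the 6 and at 8.72 FPKM after IL4, so the TGFb1 level was not set apart, whereas Pdgfa at 60.3 to 118 FPKM was below the TGFb1 level in all 6. The fibroblast growth factor gene Fgf2 was at 3.39 FPKM in the TGFb1 library and 0.245 FPKM in the untreated one. Of 13 measured growth factor genes 4 were higher and 2 lower (Gdf15 and Vegfb), with a median of 0.80, and against the other 6 libraries 3 of 14 were higher and 2 lower, with a median of 0.13. On both bases Fgf2 entered only through the TGFb1 library. Gdf15 entered the first count only through the untreated library, and 9 listed genes below 1 FPKM in both libraries were left out of it. The entry rule thus partly fixes these counts and medians.

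Among genes of matrix and the plasminogen system, 12 of 27 measured were higher and 0 lower, with a median of 0.65. Tgm2, tissue transglutaminase, a cross-linking enzyme, was at 1378 FPKM in the TGFb1 library (504 to 2251) and 54.7 FPKM in the untreated one (26.4 to 83), a change of 4.63 on the log2 scale. Plau, the urokinase gene, was at 497 FPKM in the TGFb1 library (219.9 to 773) and 29.6 FPKM in the untreated one (14.4 to 44.8), and its receptor gene Plaur at 85.6 FPKM with TGFb1 and 15.9 FPKM untreated. The collagen gene Col18a1 (56.4 FPKM in the TGFb1 library, 3.72 FPKM in the untreated one) and the fibronectin receptor gene Itga5 (222 FPKM with TGFb1 and 36.3 FPKM untreated) rose by 3.60 and 2.58. With the median of the other 6 libraries as the basis, the list had 1 higher and 8 lower of 32 measured and a median of -0.18. Tgm2, for example, lay between 673 and 3594 FPKM in those libraries, and the metalloproteinase gene Mmp14, which was at 8.91 FPKM in the TGFb1 library and 4.67 FPKM in the untreated one, had a median of 107 FPKM there.

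Several genes that define microglia, the macrophages of the brain, and depend on TGFb there were higher. Cx3cr1, the fractalkine receptor, was at 116 FPKM in the TGFb1 library (54.6 to 178) and 20.2 FPKM in the untreated one (9.82 to 30.5), a change of 2.47. Tmem119, a microglial surface marker, was at 21.3 FPKM in the TGFb1 library (10.7 to 31.9) and 0.372 FPKM in the untreated one (0.131 to 0.612), a change of 4.02. Olfml3 (23.4 FPKM in the TGFb1 library, 2.48 FPKM in the untreated one), the adhesion receptor gene Adgrg1 (7.62 FPKM with TGFb1 and 0.463 FPKM untreated), the transcription factor gene Mef2a (151 FPKM with TGFb1 and 40.5 FPKM untreated) and Bin1 (330.4 FPKM with TGFb1 and 92.5 FPKM untreated) completed the 6 higher members. They were 6 of 22 measured, while 2 were lower, P2ry13 and the TAM receptor ligand gene Gas6, and the median was -0.25. Tmem119 and Adgrg1 entered only through the TGFb1 library, where they are high, and 5 listed genes below 1 FPKM in both were left out. The entry rule thus partly fixes this count and median. P2ry12 did not pass, at 1.44 FPKM in the TGFb1 library and 2.14 FPKM in the untreated one; it shares an assembled locus with P2ry13, so their separate values are uncertain. The complement gene C1qa (549 FPKM with TGFb1 and 612 FPKM untreated) was within 2-fold, and Sall1, a transcription factor gene of microglia, was listed at 0 in both libraries.

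The fractalkine receptor shows how the stimuli differ. Cx3cr1 was at 114 FPKM after TNFa, 90.7 FPKM after IL1b, 82.7 FPKM after MALP2 and 41.9 FPKM after CpG, against 2.92 FPKM after IFNg and 2.28 FPKM after IL4. The TGFb1 level of 116 FPKM was thus close to that after TNFa and far above those after IFNg and IL4. Adgrg1 at 7.62 FPKM was more than 2-fold above all 6 (0.299 to 2.16 FPKM), and Tmem119 was above all 6 (0.268 to 16.7 FPKM) by less than 2-fold over the highest, MALP2. Relative to the median of the other 6 libraries 5 of 22 microglial genes measured were higher and 0 lower, with a median of 0.60 against 0.03 over all genes. Adgrg1, below 1 FPKM in that median, entered this count too only through the TGFb1 library. On this basis the change of Cx3cr1 was 0.89. The promoter window of Cx3cr1 (GRCm38.p6 chr9:120068297-120068546, minus strand) is shown because the levels of the gene across the stimuli are given here; its 1 match begins 226 bases before the start.
Cx3cr1: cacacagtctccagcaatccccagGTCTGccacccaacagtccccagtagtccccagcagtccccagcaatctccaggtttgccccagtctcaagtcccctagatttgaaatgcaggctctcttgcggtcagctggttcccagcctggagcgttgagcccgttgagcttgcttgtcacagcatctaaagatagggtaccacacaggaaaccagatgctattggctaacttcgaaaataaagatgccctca

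Langerhans cells are the next case. These antigen-presenting cells of the epidermis need TGFb, and of 5 measured genes from 8 listed 4 were higher, with a median of 1.91. Cd207 and Cdh1 entered only through the TGFb1 library, where they are high, and genes below 1 FPKM in both libraries were left out, so the entry rule partly fixes this count and median. Cd207, which encodes langerin, was at 8.74 FPKM in the TGFb1 library (3.97 to 13.5) and 0.0451 FPKM in the untreated one (0 to 0.0902), and the adhesion gene Cdh1, E-cadherin, at 2.58 FPKM with TGFb1 and 0.0349 FPKM untreated. The transcription factor gene Runx3 was at 18.1 FPKM in the TGFb1 library (9.37 to 26.8) and 2.32 FPKM in the untreated one (1.14 to 3.51). Axl was at 97.9 FPKM in the TGFb1 library and 130.4 FPKM in the untreated one and did not pass. Other stimuli reached higher levels: Cd207 was at 33.3 FPKM after IFNg and Cdh1 at 82.8 FPKM after IL4, and against the median of the other 6 libraries 1 of 4 comparable members, Cd207, was 2-fold higher.

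Inhibitors of basic helix-loop-helix factors, the ID proteins, are classic targets of SMADs. Id1 was at 72.3 FPKM in the TGFb1 library (37.5 to 107) and 1.11 FPKM in the untreated one (0.44 to 1.79), a log2 change of 5.12. Id3, whose promoter window is shown above, was at 39 FPKM in the TGFb1 library (19.6 to 58.5) and 4.14 FPKM in the untreated one (1.87 to 6.4), and Id2 at 239 FPKM with TGFb1 and 63 FPKM untreated. None of the ID genes stood out against the other stimuli: Id1 was at 48.9 to 80.2 FPKM, Id3 at 33.2 to 96.3 FPKM and Id2 at 153 to 312 FPKM in the other 6 libraries, so the low value was the untreated one in each case. Hes1, a repressor known from Notch signalling, did: it was at 7.39 FPKM in the TGFb1 library (3.63 to 11.2) and 0.249 FPKM in the untreated one (0.0763 to 0.421), and at 0.596 to 1.73 FPKM in the other 6. Of the 12 measured genes of this family 5 were higher and 2 lower, and against the other 6 libraries 2 of 12 were higher and 1 lower. Tfec, a relative of the lysosomal regulator TFEB, was at 2.16 FPKM in the TGFb1 library (0.865 to 3.46) and 16.4 FPKM in the untreated one (7.83 to 24.9), a change of -2.46, and all 6 other libraries (15.4 to 70.7 FPKM) were at least 2-fold above the TGFb1 value.

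Early response transcription factors had 5 higher and 1 lower of 18 measured. Fos was at 62.5 FPKM in the TGFb1 library (39.1 to 85.9) and 10.3 FPKM in the untreated one (6.3 to 14.3), Maff at 13.1 FPKM with TGFb1 and 1.73 FPKM untreated, while Junb (70.4 FPKM with TGFb1 and 33.8 FPKM untreated) and Fosl2 (17.6 FPKM with TGFb1 and 8.26 FPKM untreated) passed with overlapping bounds. Atf3, a stress-induced repressor, was lower, at 77.4 FPKM in the TGFb1 library (49.9 to 105) and 271 FPKM in the untreated one (175 to 368). It also lay below all 6 other libraries (134 to 390.2 FPKM). For the median of those 6 the comparison gave 1 higher and 6 lower members and a median change of -0.56, and Fos, Maff and Junb there had negative changes of -0.52, -1.13 and -1.29.

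Growth control genes are known for a cytostatic response to TGFb in epithelial cells, in which MYC falls and CDK inhibitors rise. In this pair of libraries Myc was at 41 FPKM in the TGFb1 library (32.4 to 49.6) and 3.51 FPKM in the untreated one (2.59 to 4.44), a change of 3.22. The cyclin gene Ccnd1 was at 232 FPKM in the TGFb1 library (108 to 356) and 12.8 FPKM in the untreated one (6.2 to 19.3), a change of 4.08, and Ccnd2 rose by 1.46. The CDK inhibitor genes Cdkn1a (106 FPKM in the TGFb1 library, 88.9 FPKM in the untreated one) and Cdkn1b (12.6 FPKM with TGFb1 and 20.7 FPKM untreated) did not pass 2-fold, and Cdkn2b was below 1 FPKM in both. In all 3 of the 22 measured growth control genes were higher and 4 lower, beside 7.15% and 9.15% of all genes, with a median of -0.27. Against the other 6 libraries 2 of 23 were higher and 3 lower and the median was 0.41, so its sign depends on the basis. The MYC antagonist genes Mxd4 and Mxd1 fell by 2.85 and 1.47, the antiproliferative gene Btg2 by 1.85 and Cdkn2c by 1.13. Myc at 25.6 to 126 FPKM and Ccnd1 at 47.6 to 517 FPKM had ranges in the other 6 libraries that hold the TGFb1 values. Cdkn1a differed from these libraries: it was at 249.5 to 1319 FPKM there, above the TGFb1 level of 106 FPKM in every one.

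Of 32 measured cell cycle genes 6 were higher and 7 lower, beside 7.15% and 9.15% of all genes, with a median of -0.29. The authors called 3 of the higher and 6 of the lower ones, and 2 and 4 of them had bounds apart. The 6 higher genes were Mcm2, Mcm3, Mcm4, Mcm5 and Mcm6, subunits of the helicase that opens replication origins, and Pcna, the sliding clamp of DNA polymerases. Mcm6 was at 84.1 FPKM in the TGFb1 library (42.6 to 126) and 26.6 FPKM in the untreated one (12.8 to 40.4), and Mcm4 at 21.3 FPKM with TGFb1 and 7.42 FPKM untreated, both with bounds apart, whereas the bounds of the other 4 overlapped. The 7 lower genes act in mitosis: Aurkb, Ccnb2, Birc5, Ube2c, Bub1b, Kif23 and Kif20a. Aurkb, the kinase of the chromosomal passenger complex, was at 2.71 FPKM in the TGFb1 library (1.24 to 4.19) and 10.4 FPKM in the untreated one (5.86 to 15), and Birc5, survivin, at 5.87 FPKM with TGFb1 and 17.7 FPKM untreated. Mki67 was at 1.97 FPKM in the TGFb1 library and 2.15 FPKM in the untreated one.

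Against the other stimulated libraries the MCM genes remained higher and the mitotic genes did not remain lower. On that scale 8 cell cycle genes were higher and 0 lower, with a median of 0.25. Mcm6 was above all 6 libraries (14.5 to 52.5 FPKM), as were Mcm2 (20.4 FPKM in the TGFb1 library, 3.09 to 19 FPKM elsewhere), Mcm3, Mcm4, Mcm5 and Mcm7. The IL1b library was the highest of the 6 for each of these helicase genes, with Mcm5 at 27.5 FPKM in the TGFb1 library and 26.6 FPKM after IL1b. Aurkb lay between 1.96 and 3.68 FPKM in the other 6, so the untreated library was the high one.

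**Figure D3:**
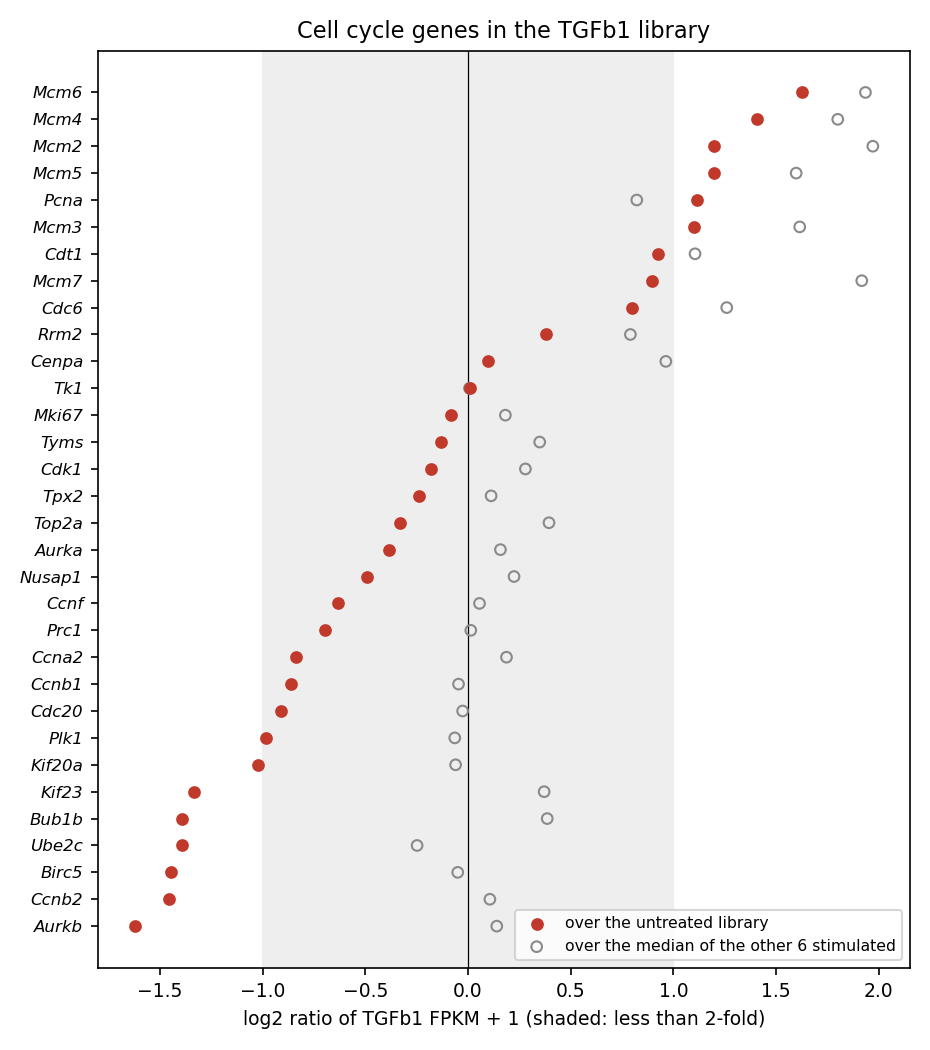
Each row is 1 of 32 cell cycle genes; red dots give the log2 ratio of the TGFb1 library over the untreated one and open circles that over the median of the other 6 stimulated libraries, both of FPKM + 1, with the band of less than 2-fold shaded. Mcm6, Mcm4, Mcm2, Mcm5 and Mcm3 are to the right of the band by both measures, while Aurkb, Ccnb2 and Birc5 are to its left by the red dots and near 0 by the open circles.

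Other genes with the largest increase had varied functions. Cxcl14, a chemokine gene, was at 188 FPKM in the TGFb1 library (93.4 to 283) and 3.38 FPKM in the untreated one (1.44 to 5.32), a log2 change of 5.43, and it was above all 6 other libraries (25.5 to 121 FPKM). Olr1, a receptor for oxidised lipoprotein, was at 25.8 FPKM in the TGFb1 library (15.3 to 36.2) and 0.0352 FPKM in the untreated one (0.00601 to 0.0643). Gpr84, a receptor for medium-chain fatty acids, was at 114 FPKM with TGFb1 and 4.05 FPKM untreated, and Trem1, an activating receptor of myeloid cells, at 20.0 FPKM with TGFb1 and 0.184 FPKM untreated. For these 3 the medians of the other 6 libraries were close to or above the TGFb1 level, at 29.2 FPKM for Olr1, 599 FPKM for Gpr84 and 27 FPKM for Trem1. The IL4 library lay below the TGFb1 level for each, at 2.0 FPKM for Olr1, 33.6 FPKM for Gpr84 and 2.18 FPKM for Trem1. Trem1 was also low after IFNg, at 2.55 FPKM. Ctla2a, a protease inhibitor gene, was at 109.9 FPKM in the TGFb1 library (53.4 to 166) and 4.76 FPKM in the untreated one (2.03 to 7.49), but it can share reads with the similar gene Ctla2b, which was at 303 FPKM with TGFb1 and 33.9 FPKM untreated. Atp2b4, a calcium pump gene, rose by 4.16 and AA467197 by 4.28. Snora16a, a small nucleolar RNA gene, was listed at 24.6 FPKM in the TGFb1 library and at 0 in the untreated one.

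The genes that set the TGFb1 library apart from all 7 others were 62 at least 2-fold above each of them and 16 below. Of the 62, 40 were protein-coding and 19 were short RNAs listed at 0 in the untreated library, such as Snord37 at 809 FPKM with a lower bound of 0; none of these 19 was called in the authors' deposited table, against 38 of the 40 protein-coding genes. Among genes that the authors called, the highest against the median of the other 6 was Slco2b1, a steroid sulfate and organic anion transporter. It was at 44.7 FPKM in the TGFb1 library (26 to 63.3) and 14.9 FPKM in the untreated one (8.05 to 21.8), and the other 6 had a lowest level of 1.22, a median of 1.82 and a highest of 18.6 FPKM, a log2 change of 4.02 against the median. The calcium channel subunit gene Tmem37 (100.6 FPKM in the TGFb1 library, 22.4 FPKM in the untreated one, 7.38 to 33.8 FPKM elsewhere) and the pentraxin gene Nptx1 (10.4 FPKM in the TGFb1 library, 0.118 FPKM in the untreated one, 0.0963 to 3.61 FPKM elsewhere) followed, and Ccsap, a centriole protein gene, was at 13.8 FPKM in the TGFb1 library, 4.27 FPKM in the untreated one and 0.61 to 3.18 FPKM in the other 6.

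Fkbp5, a co-chaperone of steroid receptors, was at 217 FPKM in the TGFb1 library (144 to 290.1) and 9.78 FPKM in the untreated one (6.18 to 13.4), a log2 change of 4.34. The other 6 libraries had 23.6 to 81.4 FPKM, with IL4 the highest. Cspg4, the NG2 proteoglycan best known from pericytes and glial precursors, was at 27.2 FPKM in the TGFb1 library (13.1 to 41.4) and 0.544 FPKM in the untreated one (0.226 to 0.863), a change of 4.19, with 2.53 to 9.56 FPKM in the other 6. Both rose against the untreated library and were more than 2-fold above every other library, and their promoter windows are shown for that reason: Fkbp5 (GRCm38.p6 chr17:28486150-28486399, minus strand) has 1 match, which begins 173 bases before the start, and Cspg4 (chr9:56864854-56865103, plus strand) has 3, at 220, 136 and 99 bases.
Fkbp5: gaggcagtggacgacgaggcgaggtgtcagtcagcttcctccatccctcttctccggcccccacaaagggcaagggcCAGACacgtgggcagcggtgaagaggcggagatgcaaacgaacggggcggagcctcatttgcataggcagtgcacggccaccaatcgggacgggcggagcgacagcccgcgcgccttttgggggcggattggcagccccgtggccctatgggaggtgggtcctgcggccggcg
Cspg4: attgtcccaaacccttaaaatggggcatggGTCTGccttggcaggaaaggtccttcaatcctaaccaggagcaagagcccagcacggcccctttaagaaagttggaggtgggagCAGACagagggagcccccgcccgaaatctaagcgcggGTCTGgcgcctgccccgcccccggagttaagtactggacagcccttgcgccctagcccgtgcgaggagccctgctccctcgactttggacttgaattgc
The kinase gene Sgk1, chosen after its values were seen, was at 447 FPKM in the TGFb1 library (350.1 to 544), 82 FPKM in the untreated one, with bounds apart, and 48.7 to 153 FPKM in the other 6. The G protein regulator gene Rgs2 (188 FPKM in the TGFb1 library, 68.5 FPKM in the untreated one) and the angiopoietin-like gene Angptl2 (160.4 FPKM with TGFb1 and 23.8 FPKM untreated) were above the other 6 as well, at 2.58 to 62.9 FPKM and 17.8 to 107 FPKM. The last, Angptl2, was less than 2-fold above IL4.

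Other genes differed little between the TGFb1 and untreated libraries and more from other stimulated ones. Cxcr4, the CXCL12 receptor that holds cells in the marrow, was at 338 FPKM in the TGFb1 library (231 to 445) and 330.2 FPKM in the untreated one (226 to 434), and at 4.36 to 47 FPKM in the other 6. Mertk, a receptor for the uptake of dying cells, was at 20.4 FPKM in the TGFb1 library and 23.8 FPKM in the untreated one, with 17.7 FPKM after IL4, close to the TGFb1 level, 10.0 FPKM after IFNg, 4.7 FPKM after IL1b, 1.86 FPKM after CpG, 1.76 FPKM after TNFa and 1.21 FPKM after MALP2. S1pr1, the sphingosine 1-phosphate receptor, rose as well as standing apart, at 100.0 FPKM in the TGFb1 library (70.4 to 129.6), 35.1 FPKM in the untreated one (24.7 to 45.5) and 4.65 to 36.7 FPKM elsewhere. Bmf, named above among the lower genes at 9.59 FPKM in the TGFb1 library, was at 1.05 to 1.86 FPKM in the other 6, so its fall against the untreated library was smaller than theirs. Cxcr4, Mertk and Bmf were chosen after their values were seen.

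**Figure D4:**
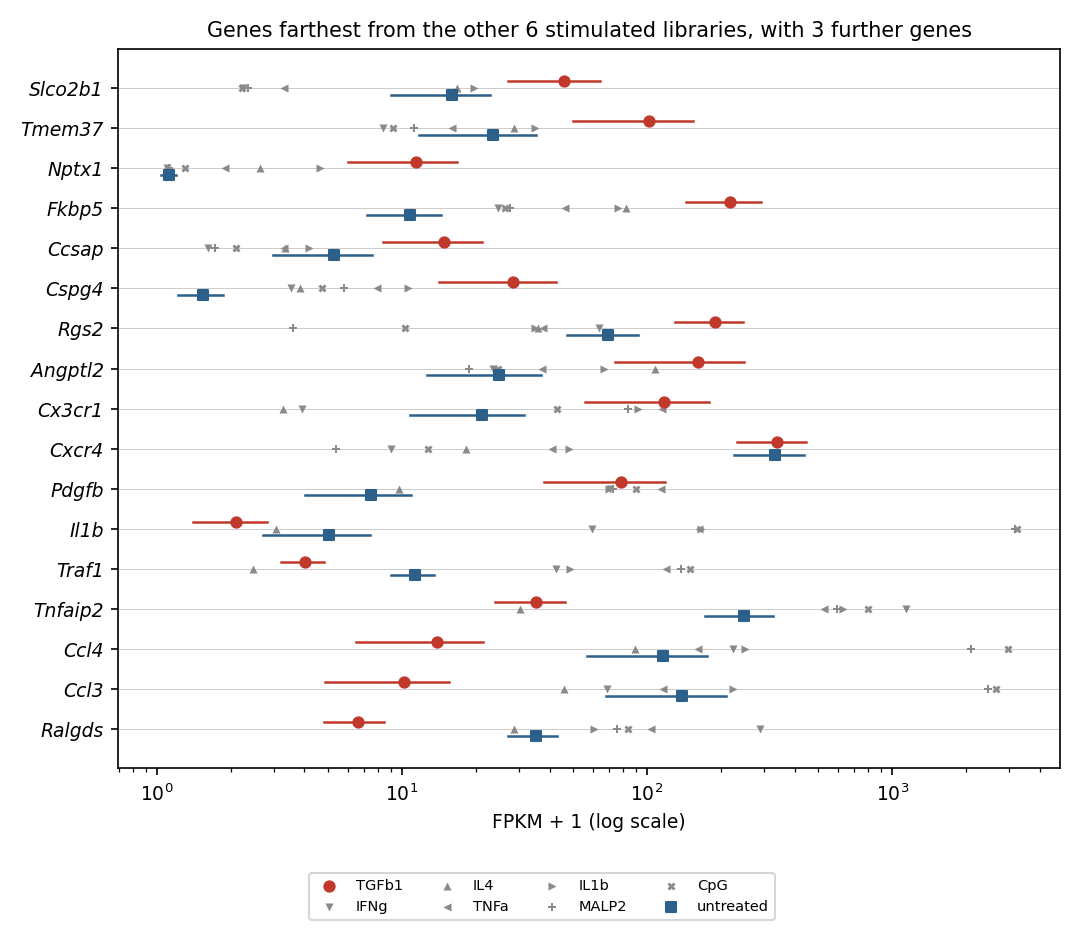
FPKM + 1 on a log axis for the 8 genes highest and the 6 lowest in the TGFb1 library against the median of the other 6 stimulated libraries, with Cx3cr1, Cxcr4 and Pdgfb between them; red circles are the TGFb1 library, grey symbols the other 6, blue squares the untreated library, and lines the authors' bounds. Slco2b1 at 44.7 FPKM lies to the right of every other library, Cxcr4 lies beside the untreated library, and Ccl3, Ccl4 and Ralgds lie to the left of all 7 others.

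The chemokine genes Ccl3 and Ccl4 were lower than in any other library. Ccl3, a macrophage inflammatory protein gene, was at 9.17 FPKM in the TGFb1 library (3.84 to 14.5) and 138 FPKM in the untreated one (67.2 to 209), a log2 change of -3.77. Ccl4, a related chemokine gene, was at 13 FPKM in the TGFb1 library (5.51 to 20.4) and 115 FPKM in the untreated one (55.9 to 175), a change of -3.06. Both were more than 2-fold below all 7 other libraries: Ccl3 there was lowest after IL4 at 44.9 FPKM and highest after CpG at 2650.5 FPKM, and Ccl4 ranged from 88.3 to 2967 FPKM. In contrast the monocyte attractants Ccl2 (51.3 FPKM in the TGFb1 library, 9.35 FPKM in the untreated one) and Ccl7 (26 FPKM with TGFb1 and 4.66 FPKM untreated) rose by 2.34 and 2.25, while staying below all 6 other libraries (116 to 707 FPKM and 64.5 to 1015 FPKM). Of 17 measured chemokine genes 4 were higher and 3 lower against the untreated library. Set against the median of the other 6, 1 of 21 was higher and 17 were lower. Those 6 include the inflammatory agents TNFa, IL1b, MALP2 and CpG, so this count depends on the choice of agents.

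Inflammatory cytokine and mediator genes gave 3 higher and 4 lower of 12 measured. Tnf was at 40.3 FPKM in the TGFb1 library (26.4 to 54.2) and 7.33 FPKM in the untreated one (3.65 to 11), and Il1rn, the interleukin 1 receptor antagonist, at 121 FPKM with TGFb1 and 25.2 FPKM untreated. Il1b was at 1.11 FPKM in the TGFb1 library (0.406 to 1.81) and 4.06 FPKM in the untreated one (1.7 to 6.41), a change of -1.26 with overlapping bounds. Il15 fell by 2.12 and Il10 by 1.06, and Il6 was below 1 FPKM in both libraries. Compared with the other 6 libraries, 0 of 16 were higher and 13 lower, with a median of -2.04. That basis also depends on the choice of agents, since TNFa, IL1b, MALP2 and CpG are among the 6. Il1b there had a lowest level of 2.06 after IL4, a median of 163 and a highest of 3227 FPKM, and Tnf a median of 351 FPKM.

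NF-kB targets and feedback regulators had 4 higher and 4 lower of 36 measured and a median of 0.18 against the untreated library, shares near the 7.15% and 9.15% of all genes. Against the other 6 they had 0 higher and 28 lower of 37, beside 3.56% and 4.02% of all genes, and a median of -2.05. Those 6 include TNFa, IL1b, MALP2 and CpG, which activate NF-kB, so this basis is high for such genes by the choice of agents. The inhibitor gene Nfkbia was at 77.9 FPKM in the TGFb1 library and 55.1 FPKM in the untreated one, with a median of 338 FPKM elsewhere. Tnfaip2 was at 34.1 FPKM in the TGFb1 library (22.9 to 45.3) and 248 FPKM in the untreated one (171 to 326), a change of -2.83, and the adaptor gene Traf1 at 3.01 FPKM with TGFb1 and 10.3 FPKM untreated. After IL4 both were lower still, Tnfaip2 at 29.2 FPKM and Traf1 at 1.46 FPKM. Cd83, a surface protein of activated antigen-presenting cells, was at 11.5 FPKM in the TGFb1 library (5.9 to 17.2) and 59.9 FPKM in the untreated one (31.7 to 88.1), below all 6 other libraries as well (24.8 to 173 FPKM). The costimulatory gene Cd86 rose by 2.32, at 26.7 FPKM with TGFb1 and 4.57 FPKM untreated.

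Interferon response genes were lower as a group. All 36 listed genes were measured, 0 were higher, 18 were lower and all 36 had a change below 0, with a median of -1.01 against -0.08 over all genes. Irf7, the factor that amplifies type I interferon, was at 49.8 FPKM in the TGFb1 library (39 to 60.6) and 242 FPKM in the untreated one (189.9 to 294), a change of -2.26. The antiviral genes Oas3 (15.3 FPKM in the TGFb1 library, 71.1 FPKM in the untreated one) and Oasl2 (55.1 FPKM with TGFb1 and 232 FPKM untreated) fell by 2.14 and 2.05. The RNA sensor gene Ddx58, which encodes RIG-I, was at 18.8 FPKM in the TGFb1 library (13.5 to 24.1) and 62.7 FPKM in the untreated one (45.1 to 80.3), and the nucleic acid sensor gene Zbp1 at 22.3 FPKM with TGFb1 and 75.4 FPKM untreated. Ifit1 (20.6 FPKM with TGFb1 and 33.4 FPKM untreated) did not pass. Of the 18, 15 were called in the authors' deposited table and 14 had bounds apart. In comparison with the other 6 libraries 20 were lower and the median was -1.07, but IL4 was lower still for many of them, with Oasl2 at 35.9 FPKM and Ifit1 at 4.61 FPKM, while the IFNg library is one of the 6 and reached 510.4 FPKM for Oasl2. Irf7, Oas3, Oasl2 and Ddx58 were below the untreated level after every agent but IFNg. For these agents Irf7 lay at 61.8 to 189.6 FPKM and Oas3 at 11.7 to 37.4 FPKM. Zbp1 differed, at 75.5 FPKM after MALP2 and 102 FPKM after CpG. Genes of this group that resemble each other, such as the Oas and Ifit families, can share reads.

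**Figure D5:**
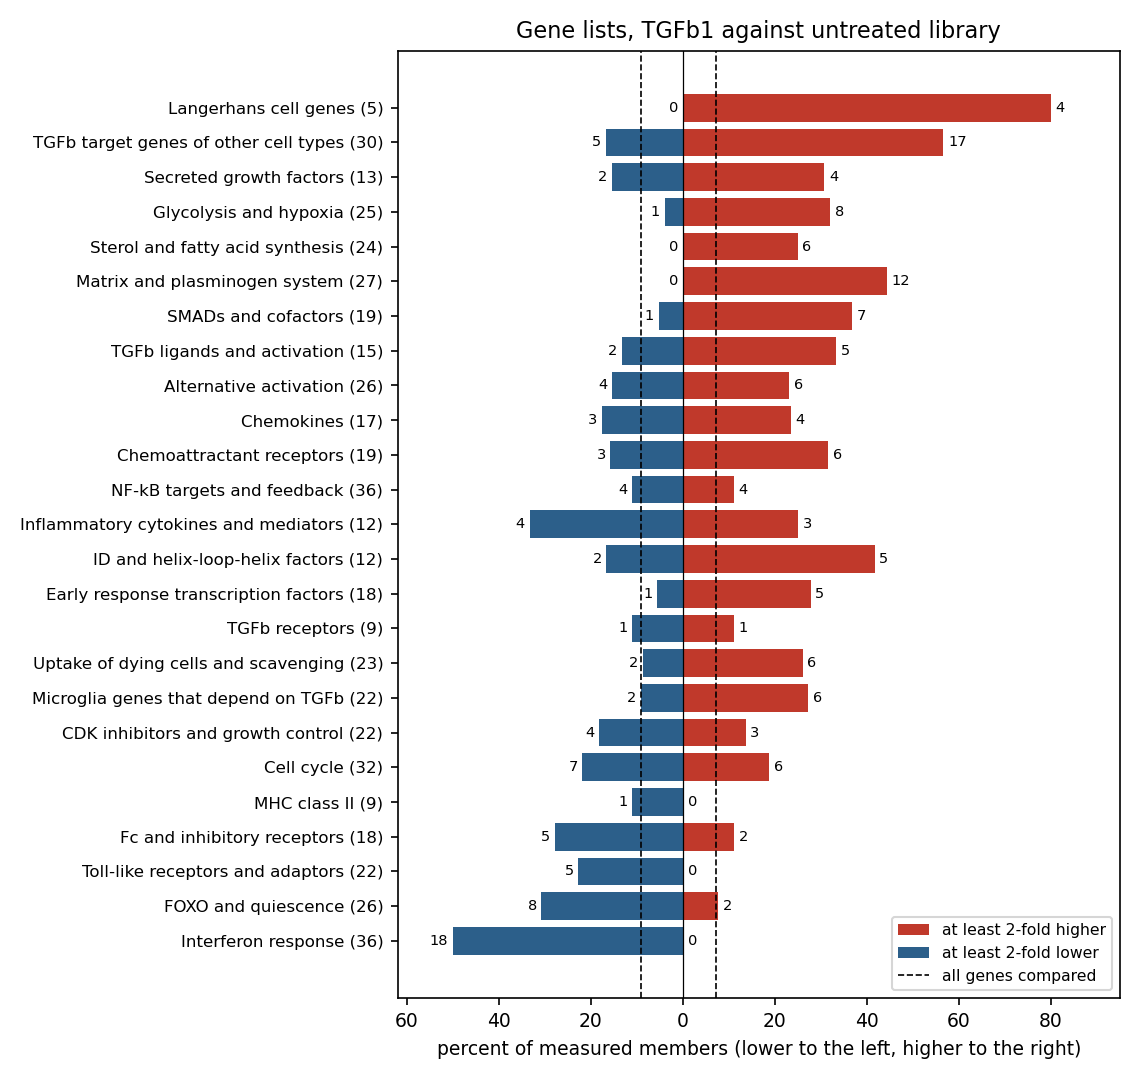
For each gene list, with its number of measured members in brackets, the bars give the percent of members at least 2-fold higher (red, to the right) and at least 2-fold lower (blue, to the left) in the TGFb1 library than in the untreated one, with member counts at the bar ends and dashed lines at the values over all genes compared, 7.15% and 9.15%. Lists are ordered by their median log2 change, from Langerhans cell genes (4 of 5 higher) to interferon response genes (18 of 36 lower), and members can belong to several lists.

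MHC class II genes were mostly within 2-fold. Of 9 measured 0 were higher and 1 lower, the master regulator gene Ciita, at 0.307 FPKM in the TGFb1 library (0.185 to 0.429) and 3.19 FPKM in the untreated one (1.97 to 4.41). H2-Aa was at 78.4 FPKM in the TGFb1 library and 76.2 FPKM in the untreated one. The invariant chain gene Cd74 was at 167 FPKM in the TGFb1 library and 208 FPKM in the untreated one, with overlapping bounds. Against the other 6 libraries 0 of 8 were higher and 1 lower, with a median of -0.66.

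Toll-like receptor and adaptor genes held 0 higher and 5 lower members of 22, beside 7.15% and 9.15% of all genes, with a median of -0.55. Against the other 6 libraries 2 of 21 were higher and 5 lower, and the median was -0.0089, so the lower median was relative to the untreated library. Tlr7, an endosomal sensor of RNA, was at 15 FPKM in the TGFb1 library (9.97 to 20.0) and 68.6 FPKM in the untreated one (44.5 to 92.7), with 11.2 to 22.8 FPKM in the other 6. Tlr9, a sensor of DNA, was at 12.1 FPKM in the TGFb1 library and 53.2 FPKM in the untreated one, with 5.8 to 29.6 FPKM in the other 6, so the untreated library was the high one for both. Tlr1, which pairs with TLR2 for lipopeptides, was at 6.87 FPKM in the TGFb1 library (3.2 to 10.5) and 22.6 FPKM in the untreated one (11 to 34.2), and was more than 2-fold below all 7 others (23.8 to 68.6 FPKM in the other 6). Tlr6 and Tlr8 fell by 1.13 and 1.08. Tlr2 was at 137 FPKM in the TGFb1 library and 74 FPKM in the untreated one and Tlr4 at 6.43 FPKM with TGFb1 and 13.4 FPKM untreated, neither passing.

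Chemoattractant receptors had 6 higher and 3 lower of 19 measured, and 4 higher and 6 lower of 22 against the other 6 libraries. Besides Cx3cr1 and S1pr1, Ccr1 rose by 2.53 (23.1 FPKM in the TGFb1 library, 3.18 FPKM in the untreated one), the oxysterol receptor gene Gpr183 by 1.84 (33.9 FPKM with TGFb1 and 8.77 FPKM untreated), the complement receptor gene C5ar1 by 1.38 (626 FPKM with TGFb1 and 239 FPKM untreated) and Ccr3 by 1.06. Gpr183 was above all 6 other libraries (1.65 to 24.3 FPKM). Ptafr, the receptor of platelet-activating factor, was at 21.6 FPKM in the TGFb1 library (10.5 to 32.7) and 191 FPKM in the untreated one (87.1 to 295), a change of -3.09, with 6.52 FPKM after IL4 and 80.0 to 171 FPKM after the other 5. Ccr2 was at 29.9 FPKM in the TGFb1 library and 36.6 FPKM in the untreated one and did not pass.

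Fc and inhibitory receptors had 2 higher and 5 lower of 18 measured, beside 7.15% and 9.15% of all genes, with a median of -0.54. Against the other 6 libraries 1 of 20 was higher and 5 lower, with a median of -0.48. The inhibitory receptor gene Cd300a was at 43.9 FPKM in the TGFb1 library (28 to 59.9) and 265 FPKM in the untreated one (169 to 362), a change of -2.57. Sirpa, the receptor of the CD47 signal that restrains engulfment, was at 462 FPKM in the TGFb1 library (339.6 to 584) and 1332 FPKM in the untreated one (891 to 1773). Pirb fell by 1.64 and Fcgr2b by 1.09, and Fcgr4 was at 43 FPKM in the TGFb1 library and 124 FPKM in the untreated one, with overlapping bounds. Pirb can share reads with the similar Pira genes. Cd300a and Sirpa in the TGFb1 library were also below all 6 other libraries (62.8 to 103 FPKM and 580.5 to 937 FPKM), by less than 2-fold from the median. The higher members were Trem1 and Cd300lf (133 FPKM in the TGFb1 library, 49.7 FPKM in the untreated one).

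Genes for the uptake of dying cells and scavenging included 6 higher and 2 lower of 23 measured, and 2 higher and 0 lower of 21 against the other 6 libraries. Beside Olr1, Tgm2, Itgav and Itgb5, the scavenger receptor genes Msr1 (85.6 FPKM in the TGFb1 library, 17.8 FPKM in the untreated one) and Cd36 (88.4 FPKM with TGFb1 and 18.9 FPKM untreated) rose by 2.21 and 2.17. The cholesterol exporter gene Abcg1 was at 8.73 FPKM in the TGFb1 library (4.18 to 13.3) and 102 FPKM in the untreated one (48.1 to 156), a change of -3.40. In the other 6 libraries Abcg1 had a median of 7.74 FPKM, so the untreated library was the high one.

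Genes of alternative activation, the programme best known from IL4, had 6 higher and 4 lower of 26 measured, and 0 higher and 9 lower of 25 against the other 6 libraries, where the median was -0.49. Arg1, arginase 1, was at 8.97 FPKM in the TGFb1 library (4.07 to 13.9) and 0.0353 FPKM in the untreated one (0 to 0.0761), with 1818 FPKM after IL4 and 4.62 to 19.2 FPKM after the other 5. The cholesterol 25-hydroxylase gene Ch25h and the arginine transporter gene Slc7a2 rose by 3.06 and 2.49, to levels below all 6 other libraries. Arg1 and Slc7a2 entered the count against the untreated library only through the TGFb1 library, so the entry rule partly fixes it. The lectin gene Clec10a fell by 2.75 and the nuclear receptor gene Pparg by 2.01, and Batf3 was listed at 0 in the TGFb1 library and at 2.46 FPKM in the untreated one. Clec10a, at 7.96 FPKM with TGFb1 and 59.4 FPKM untreated, was also low after TNFa, IL1b, MALP2 and CpG, at 10.1 to 10.8 FPKM. It was at 64.2 FPKM after IFNg and 74.4 FPKM after IL4. Mrc1, the mannose receptor, was at 61 FPKM in the TGFb1 library and 98.9 FPKM in the untreated one and did not pass.

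Sterol and fatty acid synthesis genes were higher or within 2-fold. Of 24 measured 6 were higher and 0 lower, with a median of 0.69. Sqle, squalene epoxidase, was at 108 FPKM in the TGFb1 library (51.9 to 164) and 20.6 FPKM in the untreated one (10.1 to 31.1), a change of 2.34. Idi1, Cyp51 and Msmo1, enzymes earlier and later in the same route, rose by 1.94, 1.83 and 1.55. Set beside the other 6 libraries, 1 member was higher and 0 lower, and IL1b had the highest level of Sqle, at 117 FPKM.

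Glucose use and hypoxia genes had 8 higher and 1 lower of 25 measured, with a median of 0.73. The glucose transporter gene Slc2a1 was at 96.7 FPKM in the TGFb1 library (55.6 to 138) and 17.8 FPKM in the untreated one (9.17 to 26.4), the lactate transporter gene Slc16a3 at 134 FPKM with TGFb1 and 28.9 FPKM untreated, and hexokinase gene Hk2 at 63.1 FPKM with TGFb1 and 13.6 FPKM untreated. Hif1a, the oxygen-regulated transcription factor, rose by 1.72. Ndrg1, often used as a hypoxia marker, was at 14.7 FPKM in the TGFb1 library (8.97 to 20.4) and 172 FPKM in the untreated one (115 to 228), a change of -3.46, and below all 6 other libraries too (25.1 to 149.9 FPKM). In relation to the median of these 6, 0 members were higher and 4 lower, with Slc2a1 at 326 FPKM and Slc16a3 at 286 FPKM there.

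Among the genes with the largest decrease, Rassf4, a RAS-association domain protein gene, was at 14.7 FPKM in the TGFb1 library (10.1 to 19.3) and 269 FPKM in the untreated one (163 to 375), a change of -4.11. It was at 15.3 FPKM after IL4 and at 127 to 291 FPKM after the other 5 agents. Calhm6 was at 0.148 FPKM in the TGFb1 library and 16.7 FPKM in the untreated one. It was at 319 FPKM after IFNg but at 0.64 to 4.3 FPKM after the other 5 agents, also below the untreated level. Ednrb, the endothelin receptor, was at 1.03 FPKM with TGFb1 and 21.7 FPKM untreated, with 5.42 to 19.8 FPKM in the other 6. For another 5 of the 10 lowest genes the other 6 libraries were similarly low. Slc40a1, the iron exporter ferroportin, was at 1.14 FPKM in the TGFb1 library (0.46 to 1.82) and 31.5 FPKM in the untreated one (15.3 to 47.7), with 1.3 to 4.12 FPKM in the other 6. Dbp, a clock-controlled transcription factor gene, was at 1.13 FPKM in the TGFb1 library, 26.1 FPKM in the untreated one and 0.803 to 1.7 FPKM in the other 6, and Lrrc14b, Gpr162 and Cd28 showed the same order.

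Ralgds and Rgl1, which encode exchange factors of RAL GTPases, were also at least 2-fold below all 7 other libraries; Rgl1 and the genes that end this paragraph were chosen after their values were seen. Ralgds was at 5.63 FPKM in the TGFb1 library (3.8 to 7.46), 34.1 FPKM in the untreated one (26.2 to 42.1) and 27.7 to 288 FPKM in the other 6. Rgl1 was at 2.62 FPKM in the TGFb1 library (1.61 to 3.63), 11.8 FPKM in the untreated one (8.43 to 15.2) and 18.8 to 72.6 FPKM in the other 6. The homeobox gene Hlx, the ion channel gene Mcoln2 and the phosphatase gene Ptprj belonged to the same 16.

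FOXO targets and quiescence genes had 2 higher and 8 lower of 26 measured, with a median of -0.65. Tcp11l2 was at 3.46 FPKM in the TGFb1 library (1.59 to 5.33) and 44.6 FPKM in the untreated one (21.3 to 67.8), and the stress gene Sesn1 at 29.1 FPKM with TGFb1 and 102 FPKM untreated. The autophagy gene Gabarapl1 fell by 1.71. With the other 6 libraries as the basis the list's median was 0.64, with 3 higher and 2 lower members, so the sign of its median depends on which libraries it is set against.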

How the data were processed

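Poly(A) RNA was sequenced from 8 libraries, 1 per group, grouped by their labels. The submitters' processing notes name mm9, TopHat 1.3.1, Cufflinks 1.2.1 and Cuffdiff 1.2.1; the sources used here do not give their options, the number of reads or the strand setting. Without strand, overlapping genes and antisense partners cannot be told apart. The deposited tables hold FPKM with lower and upper bounds and a status, per the file headers, and a q-value with a yes or no call for each gene, and the highest q-value among genes the authors called was 0.0499. Depth is unknown, so the precision of a value is that of the authors' bounds. Since FPKM divides by a library total, very abundant transcripts lower all others.

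A pseudocount of 1 FPKM was added before log2, and genes at 1 FPKM or more in either library were compared. The untreated values of the 7 tables differ by 1 factor per table, by which the tables were joined. Symbols came from GENCODE M21 for 31840 of 36806 genes. Gene coordinates are those of the files in mm9, counted from 1, and span assembled loci that can hold several genes; promoter windows and their coordinates are RefSeq's in GRCm38.p6, where 19 of 29 named higher genes had an entry and Pmepa1, Skil and Id1 did not.

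Genes were named by rule: the 15 highest and 10 lowest against the untreated library among those the authors also called, the 8 highest and 6 lowest against the other 6, the members past 2-fold of the lists of TGFb production, reception and SMADs, up to 5 members of every other list by size of change, and the markers Pmepa1, Cx3cr1 and Pdgfb. Other genes are examples of their list or are said to be chosen after their values were seen. The members, the 34 lists and the rules were chosen with earlier results of these data known. In the lists the symbols Bcl2a1a, Bcl2a1d, Cdkn2d, Gpr56, Hmgcs1 and Lilrb4a were not matched. The size rule was tested on simulated data, which cannot give the variation between real cultures. As alternatives, the pseudocount was set to 0.1, the floor to 5 FPKM or removed, changes were centred on the median of all genes, a gene was counted only with the authors' call, only with bounds apart or only if protein-coding, and the other 6 libraries replaced the untreated one. Python 3.11.15, numpy 2.4.6, pandas 2.3.3 and matplotlib 3.10.9 were used. Some members of the lists are counted but not reported here by name.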

Additional observations from a re-analysis of the deposited data

How the results depend on the processing

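Each side is 1 library, so no value has a replicate error, and the number of reads is unknown. No paired analysis was possible because each group has 1 library. The counts of 918 higher and 1175 lower genes stayed within 1.5 times with a pseudocount of 0.1 (1248 and 1604), a floor of 5 FPKM (792 and 1006), no floor, centring (1058 and 1020), the authors' call (654 and 845) and protein-coding genes (722 and 959). With bounds apart they were 569 and 733, since fewer genes can be counted, and with the median of the other 6 libraries in place of the untreated one 442 and 500. Of 159 named genes none changed sign under the alternatives before the last; 10 fell short with bounds apart and 5 by the authors' call. With the other 6 libraries as the basis 71 stayed on the same side of the 2-fold rule, 40 no longer passed it, Pf4 then passed it, 38 that had passed it changed sign, and the cause was not tested; the other 9 had no value, being below 1 FPKM or without status OK. Kit at 0.61 and Pdgfrb at -0.12 also changed sign without having passed 2-fold. The log2 changes of genes that had been higher were then -0.18 for Olr1, -2.38 for Gpr84, -0.058 for AA467197, -0.41 for Trem1, -0.40 for Smad6, -0.76 for Id3, -0.52 for Fos, -1.13 for Maff, -1.29 for Junb, -0.52 for Myc, -2.70 for Il1rn, -0.25 for Itga5, -3.09 for Tnf, -3.54 for Ptgs2, -1.94 for Ccl2, -2.59 for Ccl7, -0.23 for Ccr1, -2.35 for Ch25h, -2.64 for Slc7a2, -0.87 for Msr1, -1.74 for Slc2a1, -1.09 for Slc16a3, -0.43 for Hk2, -0.80 for Cebpb and -0.32 for Ppbp. Those of genes that had been lower were 0.071 for Gpr162, 0.082 for Dbp, 0.31 for Tgfbr2, 0.61 for Mxd4, 0.14 for Aurkb, 0.11 for Ccnb2, 0.37 for Tlr9, 0.14 for Tlr8, 0.16 for Abcg1, 0.83 for Tcp11l2, 0.94 for Sesn1, 0.14 for Ighm and 0.10 for Cd79b.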

Other observations

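Further protein-coding genes were more than 2-fold above all 7 other libraries after TGFb1, chosen here after their values were seen. Fabp7, a fatty acid carrier best known from glia, was at 13.8 FPKM in the TGFb1 library, 0.331 FPKM in the untreated one and 0.808 to 2.88 FPKM in the other 6. Pde3b, a cyclic nucleotide phosphodiesterase, was at 17.9 FPKM in the TGFb1 library, 1.07 FPKM in the untreated one and 1.22 to 7.64 FPKM in the other 6. Gcnt1, an enzyme that branches O-linked glycans, was at 49.9 FPKM in the TGFb1 library, 9 FPKM in the untreated one and 4.18 to 20.4 FPKM in the other 6. The receptor genes Notch4 (4.81 FPKM in the TGFb1 library, 0.405 FPKM in the untreated one) and Htr2b (4.93 FPKM in the TGFb1 library, 0.505 FPKM in the untreated one) belonged to the same set, as did the angiogenesis inhibitor gene Vash1 (15.7 FPKM in the TGFb1 library, 2.24 FPKM in the untreated one). Hyal1 was in the set at 18.4 FPKM in the TGFb1 library and 5.75 FPKM in the untreated one, but its lower bound in the TGFb1 library was 0 and the authors did not call it.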
